A study of Mus musculus with 18 samples.

Results

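Saa1, Saa2, Saa3, Lcn2, S100a4, S100a6, S100a8, S100a9, S100a10 and S100a13 are 10 mouse genes of the acute phase response and of the S100 family of calcium-binding proteins. A gene was measured through the transcript cluster, the array's unit of probes, whose annotation names that gene and no other. By this rule 9 of the 10 genes were measured, each by 1 cluster, out of 22180 genes with a cluster of their own. Saa1 had none: the 1 further cluster that names it also names Saa2. The 10 symbols were chosen by measured values of these same arrays, and which comparison led to the choice is not recorded, so every level, difference and p-value of these genes below is a description of these arrays.

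The arrays came from superovulated female BABL/c mice (the strain name as labelled), 9 weeks old, of which 10 littermate pairs had been split at random at 6 weeks. Stressed mice were transported over 1000 km for nearly 10 h and brought back, and control mice stayed in the laboratory. Hypothalamus, pituitary and ovary of each treatment were each profiled in 3 samples: the mouse that ovulated the most oocytes (high), the mouse that ovulated the fewest (low), and a pool of the other 8 mice (pool). That gave 18 arrays, with 3 stress and 3 control arrays per tissue, and the 3 tissues of a class came from the same mouse or pool. A high or low sample is therefore a single animal, the spread within a group includes the difference between classes, and no oocyte count was used here.

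Serum amyloid A proteins are small apolipoproteins of high-density lipoprotein that the liver releases in the acute phase response, mainly under interleukin 6, interleukin 1 and the transcription factors C/EBP beta, STAT3 and NF-kB, while Saa3 is the mouse form made mostly outside the liver. Lipocalin 2, the product of Lcn2, binds bacterial siderophores and is secreted by epithelia, neutrophils and inflamed tissue. S100 proteins are small EF-hand proteins that act inside cells as calcium sensors, and some of them also act outside as signals through Tlr4 or the receptor Ager. S100a8 and S100a9 pair as calprotectin and mark neutrophils and other myeloid cells. S100a4 and S100a6 are abundant in fibroblasts and other mesenchymal cells, S100a10 binds annexin A2 at membranes, and S100a13 takes part in the release of Fgf1 and interleukin 1 alpha from cells.

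The Saa genes lie together on chromosome 7, the 6 S100 genes on chromosome 3 and Lcn2 on chromosome 2. RefSeq promoter sequences (GRCm38.p6) matched 9 of the 10 genes. The 250 bases before the start that this table gives each gene are shown for the genes whose ovary arrays all lay above the other tissues (Saa2, Saa3, S100a4 and S100a6) and for Saa1, the near copy of Saa2. They are read 5′ to 3′ along the gene, at chr7:46742981-46743230 (minus strand), chr7:46751583-46751832 (plus strand), chr7:46715677-46715926 (minus strand), chr3:90603520-90603769 (plus strand) and chr3:90612644-90612893 (plus strand). Capitals mark matches, on either strand, to a C/EBP motif (TTGCNNAA), an NF-kB motif (GGNNTTTCC) or a TATA box (TATAAA). All 250 bases of the Saa3 window and 201 of the Saa1 window lie inside RefSeq's span of the gene, so for these genes the start used is not the outermost one. The windows of Saa2, S100a4 and S100a6 lie wholly outside it.
Saa1: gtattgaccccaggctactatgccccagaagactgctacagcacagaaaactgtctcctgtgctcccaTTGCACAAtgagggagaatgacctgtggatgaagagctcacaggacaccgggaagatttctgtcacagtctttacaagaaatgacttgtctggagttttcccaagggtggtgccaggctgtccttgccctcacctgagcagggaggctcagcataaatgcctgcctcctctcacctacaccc
Saa2: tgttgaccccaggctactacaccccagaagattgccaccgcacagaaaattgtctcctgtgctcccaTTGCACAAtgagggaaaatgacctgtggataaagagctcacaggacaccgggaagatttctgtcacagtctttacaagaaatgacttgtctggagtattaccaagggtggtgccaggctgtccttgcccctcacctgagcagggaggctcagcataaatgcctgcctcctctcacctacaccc
Saa3: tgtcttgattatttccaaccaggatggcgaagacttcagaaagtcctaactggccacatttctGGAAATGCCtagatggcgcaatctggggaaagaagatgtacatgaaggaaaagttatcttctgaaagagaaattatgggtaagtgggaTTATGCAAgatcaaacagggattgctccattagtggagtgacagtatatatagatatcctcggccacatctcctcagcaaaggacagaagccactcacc
S100a4: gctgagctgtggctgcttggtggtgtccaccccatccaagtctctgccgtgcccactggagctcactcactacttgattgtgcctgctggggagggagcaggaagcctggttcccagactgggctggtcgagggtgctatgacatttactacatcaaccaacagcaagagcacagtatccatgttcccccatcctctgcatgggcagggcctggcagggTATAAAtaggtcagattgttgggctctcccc
S100a6: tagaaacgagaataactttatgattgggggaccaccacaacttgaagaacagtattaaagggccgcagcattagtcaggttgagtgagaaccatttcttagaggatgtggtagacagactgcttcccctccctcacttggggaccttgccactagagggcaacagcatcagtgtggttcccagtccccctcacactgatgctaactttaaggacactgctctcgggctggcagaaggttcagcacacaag
The C/EBP letters stood once in each Saa promoter, between 182 and 175 bases before the start in Saa1, between 183 and 176 in Saa2 and between 99 and 92 in Saa3. Over all 32851 promoter windows of this length, 9.56% held the C/EBP letters, 4.93% the NF-kB letters and 12.4% the TATA letters. The NF-kB letters stood in Saa3 alone among the 9 promoters, between 187 and 179 bases before the start. A global alignment of the Saa1 and Saa2 windows had 238 identical positions, 11 mismatches and 2 gaps, or 94.8% identity, against 51.8% between Saa2 and Saa3. The TATA letters lay between 31 and 26 bases before the start of S100a4, and S100a6 held none of the 3 motifs. Lcn2 and S100a9 each had 1 match to the C/EBP letters and S100a8 had 1 to the TATA letters, while S100a13, with 202 bases of its window inside the gene's span, had none to any motif. Distances count from the table's start. No 2 matches overlapped, a match describes only the letters in this window, and no binding was measured.

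All values are deposited log2 signals, and a difference between groups is a difference of log2 signals. The arrays of a tissue correlated at 0.928 to 0.988 (Pearson r over genes), and array medians ran from 4.75 to 5.03. Some arrays, of pools and of single mice, also read high for genes of other tissues. A list of 7 ovary markers averaged 7.60 in the stressed pituitary pool and 4.78 to 5.17 on the other pituitary arrays, and 6.72 in the stressed hypothalamus pool and 4.53 to 5.19 on the other hypothalamus arrays. Cyp11a1, which starts steroid synthesis, shows the same arrays at 11.34 and 10.52, against 12.86 to 13.35 in ovary. Both ovary pools read high for the pituitary hormone gene Prl, at 11.44 in stress and 10.82 in control mice. Stress differences in hypothalamus and pituitary are therefore given for each gene with and without the pools. Single-mouse hypothalamus arrays ran from 5.53 to 9.26 for Prl, 5.67 to 8.14 for the pituitary hormone gene Gh and 4.10 to 6.99 for Cyp11a1. Values without the pools, and high minus low in hypothalamus, are thus not free of such arrays. These are bulk tissues, so fewer cells of a type and less RNA per cell cannot be told apart.

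Across tissues, both measured Saa genes, S100a4 and S100a6 were highest in ovary without overlap, and Lcn2 had its highest mean in pituitary. S100a8 ran from 3.06 to 4.35 and S100a9 from 3.02 to 4.92 over all 18 arrays. Every ovary array lay above every array of the other tissues for Saa2, Saa3, S100a4 and S100a6, which is 4 of 9 genes, against 8.64% of all 22180 genes. In limma with the animal as a block and Benjamini-Hochberg adjustment over all genes at 0.05, ovary was higher than hypothalamus for 7 of 9 genes, against 27.0% of all genes. Ovary was higher than pituitary for 6 of 9 genes, against 23.2% of all genes, and lower for Lcn2, against 20.3%. Pituitary was higher than hypothalamus for Lcn2 and S100a10, against 21.5% of all genes.

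**Figure D1:**
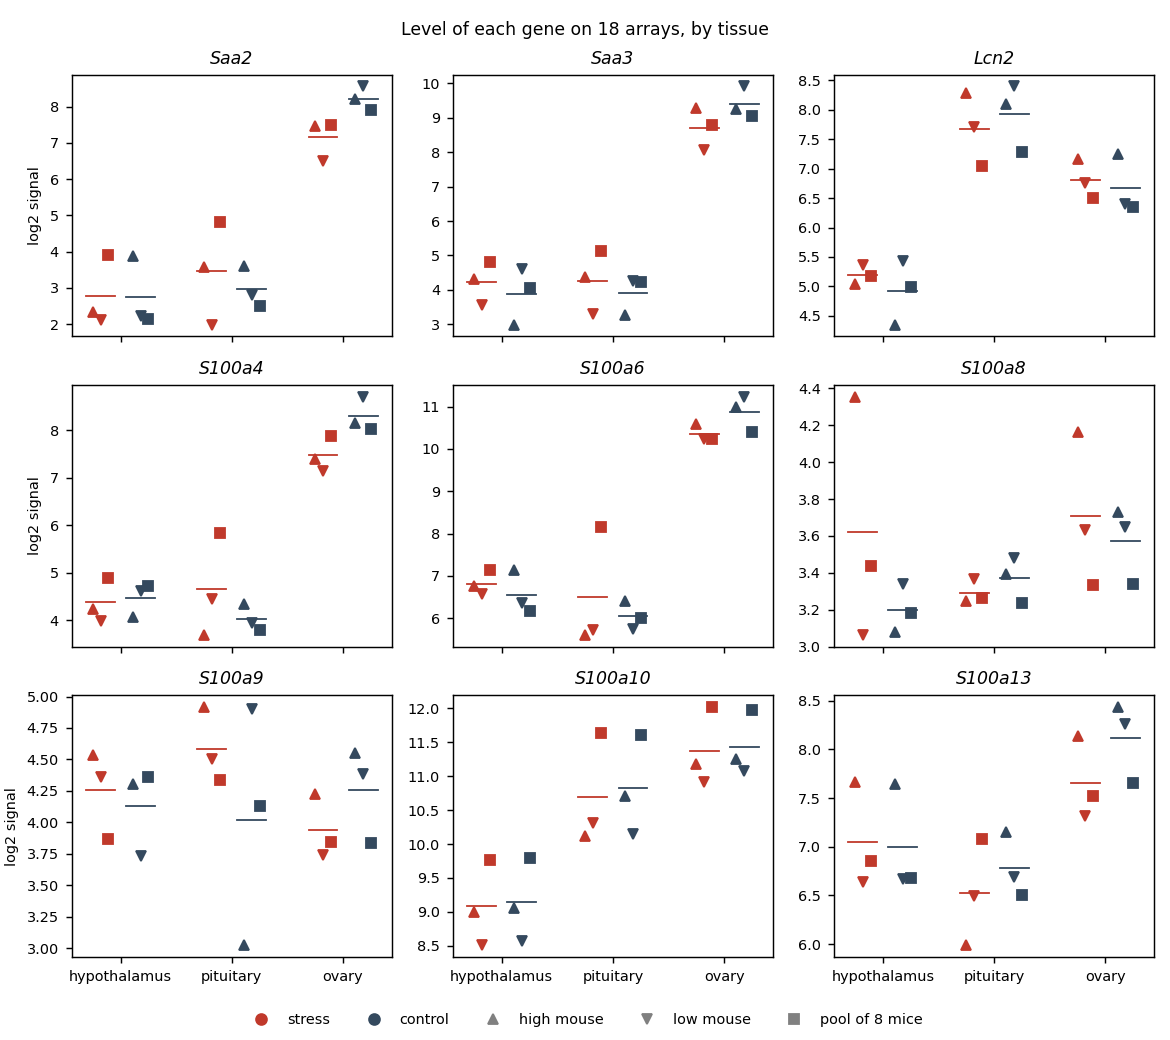
Log2 signal (vertical axis, a separate range in each panel) of the 9 measured genes on the 18 arrays, by tissue, with stress in red left of control in blue; triangles up are high mice, triangles down low mice, squares pools of 8 mice, and lines group means of 3 arrays. The ovary arrays of Saa2, Saa3, S100a4 and S100a6 lie above all others, and the square of the stressed pituitary pool stands above its group for Saa2, S100a4 and S100a6.

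Saa3 had the widest gap between tissues of the Saa genes. Stressed ovaries read 9.27 (high), 8.06 (low) and 8.78 (pool), and control ovaries 9.26, 9.91 and 9.05. The pituitary arrays ran from 3.29 to 5.14 and the hypothalamus arrays from 2.99 to 4.81, so ovary and the other tissues were 2.92 apart at their closest. The ovary mean of 9.05 ± 0.61 exceeded pituitary by 4.96 (SE 0.23, adjusted p = 1.4e-11, 31.1-fold) and hypothalamus by 5.004 (SE 0.23, adjusted p = 4.17e-12, 32.1-fold), where ± is the SD of 6 arrays.

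Saa2, the liver-type serum amyloid A, read 7.48 (high), 6.50 (low) and 7.50 (pool) in stressed ovaries, and 8.20, 8.55 and 7.90 in control ovaries. Pituitary ran from 1.99 to 4.82 and hypothalamus from 2.12 to 3.89. Ovary exceeded pituitary by 4.47 (SE 0.31) and hypothalamus by 4.93 (SE 0.31), or 22.2-fold and 30.4-fold. Pituitary and hypothalamus overlapped for both genes and no difference was called (limma's adjusted p = 0.261 for Saa2 and 0.9 for Saa3). The cluster that names both Saa1 and Saa2 read 2.28 to 3.41 in ovary, 1.51 to 2.33 in pituitary and 1.59 to 3.28 in hypothalamus. Its ovary arrays thus overlapped those of hypothalamus, unlike the cluster that names Saa2 alone, and no level can be given for Saa1. How probes of these near copies share transcripts was not tested.

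Stressed ovaries read lower than control ovaries for both Saa genes. For Saa2 the 3 stressed ovaries all lay below the 3 control ovaries, with means of 7.16 ± 0.57 and 8.22 ± 0.33 (SD, n = 3 each). The difference was -1.06 (SE 0.30, 95% interval -1.75 to -0.38), or 2.09-fold, with limma's adjusted p = 0.999. The pair of high mice gave -0.72, the low pair -2.06 and the pool pair -0.40. The cluster that names both Saa1 and Saa2 did not separate the groups, at 2.37 to 2.53 in stressed and 2.28 to 3.41 in control ovaries. Saa3 averaged 8.70 ± 0.61 in stress and 9.41 ± 0.45 in control ovaries, a difference of -0.70 (SE 0.33, 95% interval -1.46 to 0.06, adjusted p = 0.999), and the groups overlapped. The high pair did not share it, at 0.01, while the low pair gave -1.85 and the pool pair -0.26.

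No gene of the array passed the adjusted threshold for stress in any tissue (0% of 22180 in limma). An unadjusted p under 0.05 was seen for 592 genes in ovary (2.67%), 294 in pituitary (1.33%) and 245 in hypothalamus (1.10%). Each share is below what a threshold of 0.05 gives when no gene differs. For the Saa genes and the rest of the 9, the stress differences are therefore values that did not pass the test. In ovary 7 of the 9 read lower in stress and 2 read higher, with a median difference of -0.46, against -0.02 over all genes. Saa2, S100a4, S100a6 and S100a13 were lower in stress within all 3 class pairs, which is 4 of 9 genes, against 19.3% of all genes. Saa2 and S100a4 had groups that did not overlap, with stress lower, against 4.07% of all genes. Among the 1917 genes whose ovary arrays all lay above the other tissues, 4.38% had such groups.

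**Figure D2:**
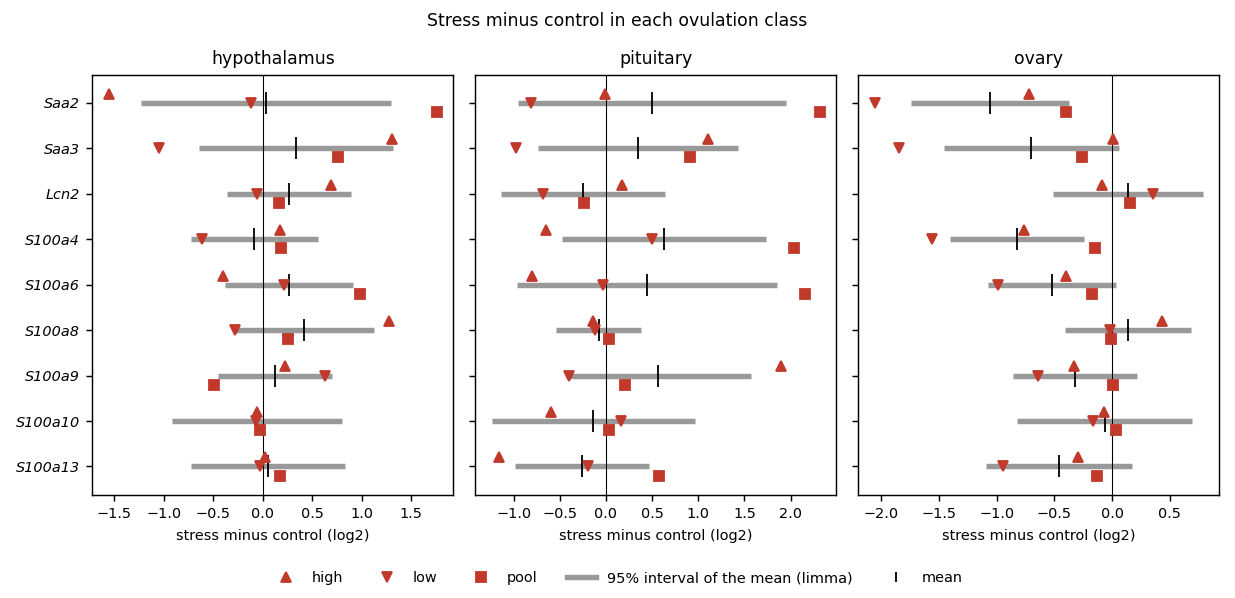
Stress minus control (horizontal axis, log2, range set per panel) for the 9 genes in each tissue: triangles up compare the 2 high mice, triangles down the 2 low mice and squares the 2 pools, with the mean as a black tick and its 95% interval from limma as a grey bar. In ovary the low mice show the most negative values for Saa2, Saa3, S100a4, S100a6 and S100a13, and in pituitary the pools lie near 2 for Saa2, S100a4 and S100a6.

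S100a4, a gene of motile and mesenchymal cells, read 7.40 (high), 7.14 (low) and 7.88 (pool) in stressed ovaries, and 8.16, 8.71 and 8.04 in control ovaries. Every stressed ovary was below every control ovary. The means were 7.48 ± 0.38 and 8.30 ± 0.36 (SD, n = 3 each), a difference of -0.83 (SE 0.26, 95% interval -1.41 to -0.24), 1.77-fold, with limma's adjusted p = 0.999. By class it was -0.76 for high, -1.56 for low and -0.15 for pool. Its ovary arrays exceeded those of hypothalamus by 3.47 (SE 0.26) and of pituitary by 3.55 (SE 0.26), both called (adjusted p = 2.64e-09 and 3.99e-09). Pituitary ran from 3.69 to 5.83 and hypothalamus from 3.99 to 4.90, which overlap.

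S100a6, calcyclin, lies near S100a4 on chromosome 3. Its level was 10.59 (high), 10.24 (low) and 10.22 (pool) in stressed ovaries, and 10.996, 11.23 and 10.40 in control ovaries. The control pool sat inside the stressed range, so the groups overlapped. Stress minus control was -0.52 (SE 0.24, 95% interval -1.08 to 0.03, limma's adjusted p = 0.999). The class pairs gave -0.40 (high), -0.99 (low) and -0.18 (pool). Ovary exceeded pituitary by 4.34 (SE 0.29) and hypothalamus by 3.93 (SE 0.29), or 20.3-fold and 15.2-fold. Hypothalamus ran from 6.16 to 7.15 and pituitary from 5.61 to 8.15, where the top value is the stressed pool. Pituitary minus hypothalamus was -0.41 (SE 0.29, adjusted p = 0.287), and without the pool arrays it was -0.83 and called (limma's adjusted p = 0.00386).

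Marker lists of other cells were read on the same ovary arrays. Macrophage and microglia markers averaged 7.41 to 7.78 in stressed and 7.45 to 7.81 in control ovaries (10 of 10 measured), and fibroblast and meningeal markers 8.75 to 9.31 in stressed and 8.59 to 9.23 in control ovaries (8 of 8 measured). Epithelial and oviduct markers averaged 6.72 to 7.24 in stressed and 6.91 to 7.17 in control ovaries (7 of 8 measured), and the ovary markers 10.02 to 10.32 in stressed and 9.75 to 10.20 in control ovaries. In each list the 2 ranges overlap, and the part of these cells in the ovary values was not tested. None of the 5 red cell markers was measured.

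In pituitary and hypothalamus the ovary-high genes read higher in the stressed pool than in the control pool. Saa2 read 4.82 in the stressed pituitary pool and 2.51 in the control pool, S100a4 5.83 in the stressed and 3.79 in the control pool, and S100a6 8.15 in the stressed and 5.99 in the control pool. These are the pools in which the ovary markers and Cyp11a1 differed as well, and their part in these values was not tested. With the pools, stress minus control in pituitary was 0.50 for Saa2, 0.63 for S100a4 and 0.44 for S100a6, and without them it was -0.41, -0.08 and -0.42. In hypothalamus, Saa2 read 3.89 in the stressed pool and 2.13 in the control pool, and S100a6 7.15 in the stressed and 6.16 in the control pool. There the differences with pools were 0.03 for Saa2 and 0.27 for S100a6, and without pools -0.83 and -0.09. Saa3 gave 0.35 in pituitary and 0.34 in hypothalamus with the pools, and 0.07 and 0.13 without them. S100a4 in hypothalamus was at -0.08 with the pools and -0.22 without them. No gene of the 9 had groups that did not overlap in either tissue, against 6.08% of all genes in pituitary and 4.54% in hypothalamus.

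**Figure D3:**
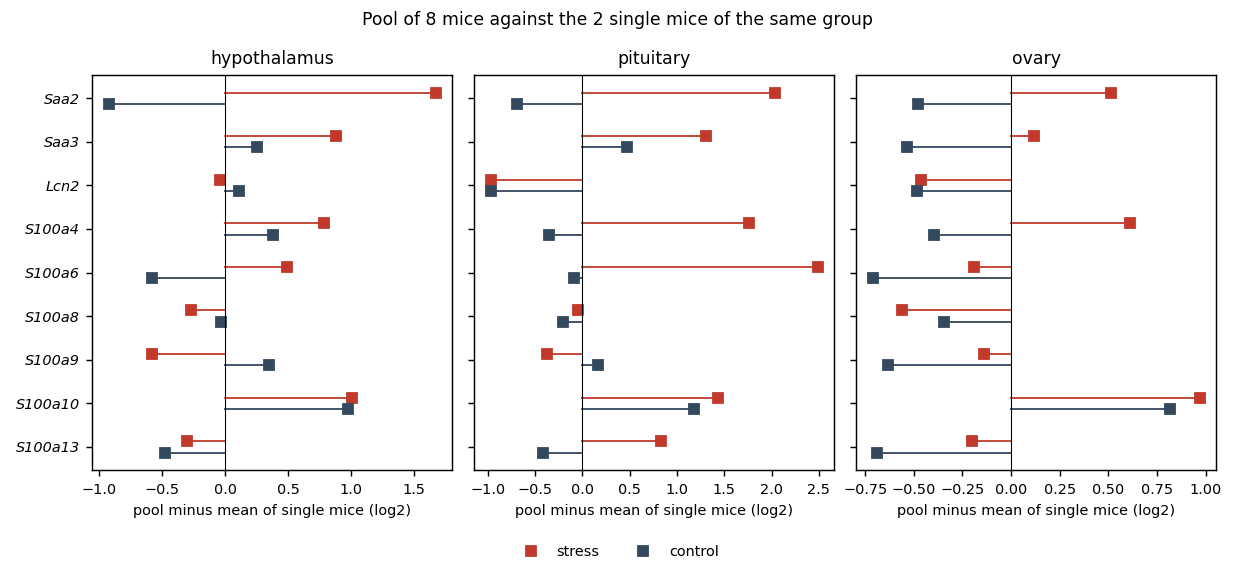
Pool minus the mean of the high and low mouse of the same group (horizontal axis, log2, range set per panel) for the 9 genes, with stress in red above control in blue. S100a10 is positive in all 6 groups, and Saa2, S100a4 and S100a6 are positive in the stressed pituitary pool, at 2.04, 1.76 and 2.49, and negative in the control one.

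The stress difference was also compared between tissues, as an interaction with the animal as a block. Ovary minus pituitary was -1.56 for Saa2 (SE 0.51), -1.45 for S100a4 (SE 0.41) and -1.05 for Saa3 (SE 0.37), and ovary minus hypothalamus was -1.09 for Saa2 (SE 0.51) and -1.04 for Saa3 (SE 0.37). None passed after adjustment in limma (adjusted p = 1 for each after rounding), and 0% of all genes did. An unadjusted p under 0.05 was seen for 846 genes (3.81%) in ovary minus pituitary and 558 (2.52%) in ovary minus hypothalamus. Without the pool arrays of all tissues, ovary minus pituitary was -0.98 for Saa2 and -1.09 for S100a4, and ovary minus hypothalamus was -0.56 for Saa2. The stress difference of Saa3 without the pools was -0.92 in ovary, 0.07 in pituitary and 0.13 in hypothalamus. The part of any single pool array in these values was not tested.

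Lcn2 was highest in pituitary. Stressed pituitaries read 8.28 (high), 7.72 (low) and 7.04 (pool), and control pituitaries 8.11, 8.40 and 7.28. Ovary ran from 6.35 to 7.25 and hypothalamus from 4.35 to 5.43, so ovary and pituitary touched while hypothalamus stood apart below both. Pituitary exceeded hypothalamus by 2.74 (SE 0.22, limma's adjusted p = 1.61e-08, 6.7-fold), and ovary was below pituitary at -1.07 (SE 0.22, adjusted p = 0.000652) and above hypothalamus at 1.68 (SE 0.22, adjusted p = 3.83e-06). Stress minus control was -0.25 (SE 0.39) in pituitary, 0.14 (SE 0.29) in ovary and 0.27 (SE 0.28) in hypothalamus, all with overlapping groups. Without the pools it was -0.25 in pituitary and 0.32 in hypothalamus. Both pituitary pools were below their single mice, at -0.96 in stress and -0.97 in control mice. Lcn2 thus did not share the ovary values of the Saa genes, and over the 6 ovary arrays its Pearson r was -0.13 with Saa2 and -0.04 with Saa3.

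S100a8 and S100a9, the calprotectin pair, averaged 3.46 and 4.20 over the 18 arrays, against a median of 5.70 for such averages over all genes. S100a8 ran from 3.33 to 4.16 in ovary, 3.24 to 3.48 in pituitary and 3.06 to 4.35 in hypothalamus. S100a9 ran from 3.74 to 4.55 in ovary, 3.02 to 4.92 in pituitary and 3.73 to 4.53 in hypothalamus. No tissue difference was called for either gene, with values between -0.21 and 0.31. The 16 neutrophil and granulocyte precursor markers averaged 3.84 to 4.18 over the 18 arrays. Among them Ly6g ran from 2.58 to 4.12, Mpo from 4.30 to 4.83 and Camp from 2.64 to 4.04. Others read higher, such as Prtn3 at 5.23 to 6.50 and Csf3r at 5.44 to 6.12. The highest S100a8 values were 4.35 in the stressed high hypothalamus and 4.16 in the stressed high ovary, which are the same mouse. The pituitary of that mouse did not share this, at 3.25, the lowest of the single-mouse pituitary arrays. Stress minus control for S100a8 was 0.42 (SE 0.31) in hypothalamus, -0.08 (SE 0.20) in pituitary and 0.14 (SE 0.24) in ovary. S100a9 gave 0.12 (SE 0.25), 0.57 (SE 0.44) and -0.32 (SE 0.24) in the same tissues, and the pituitary value contains the control high mouse at 3.02. Without the pools, S100a8 was at 0.50 in hypothalamus and -0.13 in pituitary, and S100a9 at 0.43 in hypothalamus and 0.75 in pituitary.

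S100a10, the annexin A2 partner p11, was high in every tissue and higher in the pools than in the single mice. The pools read 9.76 in stress and 9.79 in control hypothalamus, 11.64 in stress and 11.61 in control pituitary, and 12.02 in stress and 11.98 in control ovary. The single mice lay below, at 8.51 to 9.06 in hypothalamus, 10.12 to 10.71 in pituitary and 10.91 to 11.25 in ovary. A pool above both single mice in all 6 groups was seen for 12.6% of all genes, and the comparison was added after these values were seen. Hypothalamus gave a stress difference of -0.05 (-0.06 without the pools), pituitary one of -0.14 (-0.22 without the pools) and ovary one of -0.07. Ovary exceeded hypothalamus by 2.28 (SE 0.12) and pituitary by 0.65 (SE 0.12, adjusted p = 0.000194). The ovary to pituitary call was lost when the animal block was left out (limma's adjusted p = 0.118).

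S100a13 read 8.14 (high), 7.31 (low) and 7.52 (pool) in stressed ovaries, and 8.43, 8.26 and 7.66 in control ovaries. The groups overlapped, with a difference of -0.46 (SE 0.28, 95% interval -1.09 to 0.18, limma's adjusted p = 0.999), and the low pair gave -0.95. Ovary exceeded pituitary by 1.24 (SE 0.20) and hypothalamus by 0.86 (SE 0.20), while pituitary and hypothalamus overlapped at 5.99 to 7.15 and 6.64 to 7.67. Stress minus control in pituitary was -0.26 with the pools and -0.68 without them, and in hypothalamus 0.06 with the pools and -0.00168 without them.

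Between the high and the low mice, S100a13 in hypothalamus had the smallest p-value of the 9 genes. It read 7.67 in the stressed high mouse and 6.64 in the stressed low mouse, and 7.64 in the control high mouse and 6.67 in the control low mouse. High minus low was 1.03 in stress and 0.98 in control mice, with a fitted value of 1.0003 (SE 0.16, 95% interval 0.62 to 1.38). It did not pass over all genes (limma's adjusted p = 0.135), where 0% of genes passed and 4275 (19.3%) had an unadjusted p under 0.05. It passed when genes under the median level were left out (adjusted p = 0.0356, with 875 genes called) and with trend and robust moderation (adjusted p = 0.0243, with 955 genes called). The fit has 2 residual degrees of freedom and 1 mouse per class and treatment. Cell markers also read differently between these single mice. All 8 fibroblast and meningeal markers read lower in the high mice, 7 of them at an unadjusted p under 0.05, with a median of -0.71, against 0.03 over all genes. They averaged 6.74 in the stressed high and 7.62 in the stressed low mouse, and 6.68 in the control high and 7.27 in the control low mouse. Macrophage and microglia markers read higher in the high mice for 8 of 10 (median 0.32), and neutrophil markers for 12 of 16 (median 0.17). At an unadjusted p under 0.05 were 2 of the 10 and 5 of the 16, against 19.3% of all genes. The neutrophil markers were low, averaging 3.90 to 4.11 in stressed and 3.88 to 4.03 in control hypothalamus. None of these markers passed over all genes, and their part in the S100a13 value was not tested.

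**Figure D4:**
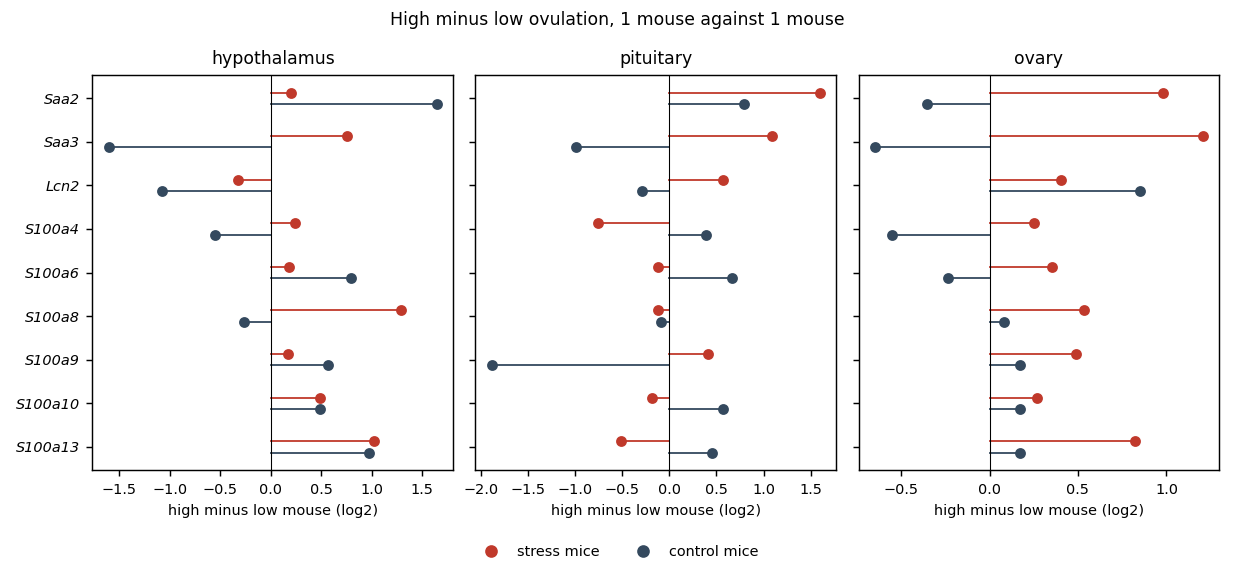
High minus low ovulating mouse (horizontal axis, log2, range set per panel) for the 9 genes in each tissue, with stressed mice in red above control mice in blue; each point is 1 mouse minus 1 mouse. In hypothalamus both S100a13 points lie near 1, and in ovary Saa2, Saa3, S100a4 and S100a6 are above 0 in stressed and below 0 in control mice.

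In hypothalamus the sign of high minus low was shared by stressed and control mice for 6 of 9 genes, against 62.0% of all genes. S100a10 gave 0.49 in stress and 0.48 in control mice, and Lcn2 -0.32 in stress and -1.07 in control mice. In pituitary 2 of 9 shared the sign, against 52.2% of all genes, namely Saa2 at 1.60 in stress and 0.79 in control mice and S100a8 at -0.12 in stress and -0.09 in control mice. In ovary 5 of 9 did, against 56.1%. Lcn2 was one of these, at 0.41 in stress and 0.85 in control mice, with a fitted 0.63 (SE 0.17, limma's adjusted p = 0.408). Saa2, Saa3, S100a4 and S100a6, whose ovary arrays all lay above the other tissues, were those without a shared sign there. High minus low was 0.98 in stress and -0.35 in control mice for Saa2, and 1.21 in stress and -0.65 in control mice for Saa3. It was 0.25 in stress and -0.55 in control mice for S100a4, and 0.35 in stress and -0.23 in control mice for S100a6. The stressed low ovary was the lowest of its group for Saa2, Saa3 and S100a4, and the control low ovary was the highest of its group for all 4 genes.

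The ovary-high genes also varied together over the 6 ovary arrays. Pearson r was 0.93 between Saa2 and Saa3, 0.94 between Saa2 and S100a4, 0.81 between Saa2 and S100a6 and 0.75 between S100a4 and S100a6. These points share the 2 treatments and the classes, and the values are a description. S100a9 and S100a13 had an r of 0.98, the highest of the 36 pairs. Nor was it limited to ovary-high genes in other pairs: S100a6 had 0.91 with S100a9 and 0.90 with S100a13, and Saa3 0.84 with S100a13. Over all 18 arrays with tissue means subtracted, the first 4 pairs gave 0.45, 0.59, 0.79 and 0.73. On the single-mouse arrays alone they gave 0.23, 0.33, 0.71 and 0.55.

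The genes whose values followed each member most closely were sought among 10450 named genes at or above the median level, over the 18 arrays after the mean of each tissue was subtracted. Saa2 was followed by Pdlim4 (r = 0.89), Nxt1 (0.81) and Procr (0.72), and Saa3 by Slc25a47 (0.78), Homer3 (0.78) and Pitpnm2 (0.77). Lcn2 was followed by Slc30a7 (0.86), Lilrb4a (0.82) and Isg20 (0.80). S100a4 was nearest to Ltbp1 (0.86), Stxbp6 (0.81) and Far2 (0.80), and S100a6 to Brinp2 (0.90), Npy (0.88) and Cpne6 (0.87). On the 12 single-mouse arrays the r of S100a4 with Stxbp6 was 0.47 and that of Saa2 with Procr was 0.54. The genes named for Lcn2 had 0.67 to 0.75 there, and those for S100a6 had 0.75 to 0.80. Others were higher there, such as Pdlim4 with Saa2 (0.91) and Slc25a47 with Saa3 (0.94). S100a8 was nearest to Prss8 (0.80), Zfp516 (0.70) and Tm7sf2 (0.70), and S100a9 to Ppm1m (0.77), Lce3c (0.74) and the macrophage gene Cd68 (0.73). S100a10 had the closest neighbours, Psmb5, Rpl27 and Ndufc2, each at 0.98, and 0.87 to 0.90 on the single-mouse arrays. S100a13 was nearest to the mitochondrial ribosomal gene Mrpl20 (0.91), Gpx4 (0.91) and Timm10 (0.90), at 0.93 to 0.94 on the single-mouse arrays.

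Other acute phase genes gave no called stress difference. Of 24 measured of 25 listed, 7 read higher and 17 lower in stressed ovary, with a median of -0.07, against -0.02 over all genes. The smallest p in ovary belonged to Orm2, an orosomucoid, at -0.62 (SE 0.19, adjusted p = 0.999), and haptoglobin, Hp, was at -0.51 (SE 0.29). In ovary minus hypothalamus 7 of the 24 were called higher and 1 lower, against 27.0% and 22.3% of all genes. In ovary minus pituitary 10 were called higher and 1 lower, against 23.2% and 20.3%. Steap4, an iron and copper reductase, was at 2.75 and 1.59 in these comparisons, and Hp was at 1.56 over pituitary. Serpina3n exceeded pituitary by 4.50, while Itih3 was below hypothalamus at -4.67.

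Among 10 other S100 genes, all measured, 2 read higher and 8 lower in stressed ovary and 0 were called, with a median of -0.18. S100a11 exceeded hypothalamus by 3.04 in ovary and by 2.92 in pituitary, and S100b, the glial S100 gene, was below hypothalamus at -4.05 in ovary and -4.45 in pituitary. S100a5, known from olfactory neurons, read 8.52 in the stressed pituitary pool and 2.78 to 4.59 on the other 17 arrays. Calb2, a neuronal gene, read 8.46 in the same pool and 5.19 in the control pool.

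Receptors and partners of these proteins likewise gave 0 called stress differences (17 of 19 measured, 5 higher and 12 lower in ovary). Scarb1, a lipoprotein receptor that also binds serum amyloid A, exceeded hypothalamus by 4.53 and pituitary by 3.66 in ovary, and Anxa2, the partner of S100a10, by 3.74 and 1.68. Slc22a17, a receptor for lipocalin 2, was at -0.43 (SE 0.24) for stress in ovary. Of the cytokine and transcription genes that control the acute phase, 23 of 24 were measured, and in ovary 18 were called higher and 2 lower than in hypothalamus, against 27.0% and 22.3% of all genes. Over pituitary 11 were called higher and 2 lower, against 23.2% and 20.3%. Osmr, the oncostatin M receptor, was at 3.25 and 2.74, Nfkb2 at 2.59 and 2.04, and Cebpa at 2.21 and 2.49. In stressed ovary 11 of 23 read higher and 12 lower, with a median of -0.02, and 0 were called. Il6 was at 0.80 (SE 0.34), Il1b at 0.53 (SE 0.21) and Jak2 at 0.53 (SE 0.20), all 3 with an adjusted p of 0.999.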

How the data were processed

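The arrays were Affymetrix Mouse Gene 2.0 ST. The deposited table holds log2 signals made by the authors with Transcriptome Analysis Console, per the submitters' processing notes. Background correction and normalization are not given in the sources used here, and the log base was read from the range of values (0.40 to 13.66). Of 41345 clusters, 23521 name 1 gene and 1814 several. Where a gene had several clusters the one with the highest mean over 18 arrays was used, which gave 22180 genes with no filter on low values.

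Stress minus control was fitted per tissue on 6 arrays with limma 3.58.1 in R 4.3.3. High minus low was fitted per tissue with treatment as a term, and tissue differences and interactions on 18 arrays with the animal as a block. Each comparison was adjusted over 22180 genes (Benjamini-Hochberg, threshold 0.05, two-sided). The fits were checked on simulated data, and alternatives of scaling, filter, block and left-out arrays were run. Labels do not call the classes batches, but deviations from group means of stress and control arrays of the same class correlated at 0.36 to 0.73, and of different classes at -0.52 to 0.32, so class was also used as a block. Genes named beyond the 10 were, per list and comparison, up to 4 with the smallest p, and, per member, the 3 with the highest r. Members and lists were chosen with earlier results of these data known. The number of animals limits the precision, with 1 mouse or pool per class and treatment.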

Additional observations from a re-analysis of the deposited data

How the results depend on the processing

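Of 1329 values of the 9 genes under alternatives, 1229 kept direction and side of the threshold, 93 changed sign (78 of them with 1 mouse or pool left out), 6 became called and 1 lost its call. In fits of 1 tissue, leaving out a mouse or pool removed 1 array. In tissue differences and interactions it removed the arrays of that mouse or pool in all 3 tissues. Cluster choice, the level filter, moderation, a shared spread and the change of block or treatment term could alter only p-values of these genes. The 1229 thus include values whose sign was fixed in advance. The ovary stress differences of Saa2, S100a4, Saa3, S100a6 and S100a13 kept their sign in the alternatives able to change it (scaling and left-out arrays). In that order they were at -1.39 to -0.73, -1.16 to -0.62, -0.98 to -0.38, -0.76 to -0.35 and -0.70 to -0.29. With ovulation class as a replicate block 0 genes were called for stress in each tissue, and the adjusted p of Saa2 and S100a4 in ovary was 0.499, so the class block changed no call. Without the animal block, S100a10 in ovary minus pituitary lost its call. Saa2 and S100a4 lie under the median level and were not tested with that filter. Without the pool arrays, stress minus control became -0.83 for Saa2, -0.0912 for S100a6 and -0.00168 for S100a13 in hypothalamus, and -0.41 for Saa2, -0.076 for S100a4 and -0.42 for S100a6 in pituitary. Without pools, too, Saa3 was -0.0609 in pituitary minus hypothalamus, and the stress effect was 0.0552 for S100a13 in ovary minus pituitary, and -0.0627 for Saa3 and -0.33 for S100a6 in pituitary minus hypothalamus. After quantile normalization, high minus low in pituitary was -0.0527 for Saa3 and 0.00839 for S100a13 (0.00462 after median centring), Saa3 was -0.0271 in pituitary minus hypothalamus, and the stress effect of S100a10 was -0.0262 in ovary minus pituitary. For high minus low in hypothalamus, 875 genes and 1 of the 9 were called among genes at or above the median level, and 955 genes and 1 of the 9 with trend and robust moderation, which called 6 genes in ovary. With 1 array left out, 0 to 1 genes were called there in hypothalamus and 0 to 27 in ovary, where 27 came without the control high mouse. Calls gained with 1 mouse or pool left out in all tissues were S100a8 in ovary minus hypothalamus (0.32, limma's adjusted p = 0.0455, without the stressed high mouse), S100a9 in ovary minus pituitary (-0.55, 0.019, without the control high mouse) and S100a6 in pituitary minus hypothalamus (-0.70, 0.0044, without the stressed pool). The cause of these shifts was not tested. Each of the 9 has 1 cluster, so the choice of cluster moved no value of theirs. Leaving out 1 array at a time, the range for stress minus control in hypothalamus was -0.0782 to 0.31 for S100a9, -0.25 to 0.38 for S100a13, -0.34 to 0.11 for S100a4, -0.39 to 0.27 for S100a10, -0.53 to 0.60 for Saa2, -0.10 to 0.70 for Saa3 and -0.0172 to 0.52 for Lcn2. Over the arrays left out in turn, the range for stress minus control in pituitary was -0.61 to 0.26 for S100a10, -0.54 to 0.0063 for S100a13, -0.18 to 1.24 for Saa2, -0.0871 to 0.84 for Saa3, -0.57 to 0.0716 for Lcn2 and -0.39 to 0.89 for S100a6. Leaving out 1 array at a time, the range for stress minus control in ovary was -0.0399 to 0.43 for Lcn2, -0.0897 to 0.32 for S100a8 and -0.39 to 0.21 for S100a10. Over the arrays left out in turn, the range for high minus low in hypothalamus was -0.13 to 1.16 for S100a8, -0.26 to 2.12 for Saa2, -1.46 to 0.62 for Saa3, -0.55 to 0.25 for S100a4, -0.00674 to 0.99 for S100a6 and -0.00892 to 0.75 for S100a9. Leaving out 1 array at a time, the range for high minus low in pituitary was -0.94 to 1.04 for Saa3, -0.19 to 0.46 for Lcn2, -1.14 to 0.78 for S100a4, -0.70 to 0.65 for S100a13, -0.66 to 1.21 for S100a6, -1.73 to 0.26 for S100a9 and -0.15 to 0.54 for S100a10. Over the arrays left out in turn, the range for high minus low in ovary was -0.58 to 1.14 for Saa3, -0.29 to 0.41 for S100a6, -0.43 to 1.06 for Saa2 and -0.70 to 0.41 for S100a4. Leaving out 1 mouse or pool at a time, the range for ovary minus hypothalamus was -0.25 to 0.00796 for S100a9. Over the mice and pools left out in turn, the range for pituitary minus hypothalamus was -0.28 to 0.0925 for S100a4, -0.16 to 0.13 for S100a8, -0.0118 to 0.12 for Saa3 and -0.10 to 0.39 for S100a9. The leave-one-out range for the stress effect, ovary minus hypothalamus was -0.0747 to 0.0903 for S100a10 and -0.51 to 0.45 for Lcn2. The leave-one-out range for the stress effect, ovary minus pituitary was -0.0349 to 0.39 for S100a8, -0.12 to 0.23 for S100a10 and -0.71 to 0.15 for S100a13. The leave-one-out range for the stress effect, pituitary minus hypothalamus was -0.18 to 0.16 for Saa3, -0.22 to 0.16 for S100a10, -0.70 to 0.26 for S100a13, -0.49 to 0.58 for S100a6 and -0.14 to 1.09 for S100a9.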
